A study of Mus musculus with 123 samples.

Results

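Central carbon metabolism is the set of reactions by which a cell breaks down sugar and pyruvate for energy and building blocks. The genes described here are 40 mouse genes for its enzymes, listed by name, with earlier results of these data known when the list was made. They are 16 of glycolysis and lactate formation, 10 of the entry of pyruvate into the mitochondrion and its carboxylation, 10 of the tricarboxylic acid (TCA) cycle and its cytosolic side enzymes, and 4 of the pentose phosphate pathway. They fill 41 of the 29022 lines of the table of unique molecular identifiers (UMIs, random tags that let each transcript copy be counted once), because Aldoa has a second line, which held 1 UMI in all and was not used. Of the 40 genes, 39 passed the filter on low counts and were tested; Aldoc, an aldolase, held 68 UMIs over all embryos and did not pass.

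Glycolysis turns glucose into pyruvate through a fixed chain of enzymes, of which hexokinase, phosphofructokinase and pyruvate kinase are the main points of control, and lactate dehydrogenase then turns pyruvate into lactate. Pyruvate carried into the mitochondrion is made into acetyl-CoA by the pyruvate dehydrogenase complex, which pyruvate dehydrogenase kinases switch off, and acetyl-CoA feeds the TCA cycle. The cleaving mouse embryo relies on pyruvate and takes up more glucose as it becomes a blastocyst, when its outer cells become trophectoderm and the inner cell mass (ICM) gives rise to epiblast and primitive endoderm. Several of these steps are served by isozymes, different genes for the same reaction, so a tissue can change which gene it uses without changing the reaction.

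The study removed Oct4 (encoded by Pou5f1) or Sox2, transcription factors of the pluripotent epiblast, and sequenced RNA from single embryos in 16 groups of 5 to 8. In each line, flox/flox mothers carrying ZP3-Cre, which acts in the growing oocyte, were mated with males heterozygous for a null allele marked by mKO2 (Oct4) or EGFP (Sox2). KO embryos therefore lacked the gene from both parents. Ctrl embryos lacked the maternal product too, but kept 1 intact allele from the father. The mothers of MWT embryos had the gene intact. The markers on the null alleles are driven by the promoter of the phosphoglycerate kinase gene, which is one of the genes below. Morulae were whole embryos taken at E2.75. ICMs were early (E3.75) or late (E4.5) and came from embryos cultured in KSOM medium, with the MEK inhibitor PD0325901, which holds back primitive endoderm, at 1 µM from E2.5, and immunosurgery removed their trophectoderm, so isolation and culture change along with stage between morula and ICM. Every KO and Ctrl group held 8 embryos; MWT embryos numbered 7, 5 and 8 in the Oct4 line and 7, early ICM alone, in the Sox2 line. The labels of the Oct4 MWT early ICMs do not state the inhibitor, which the study's methods give for early and late ICMs without exception, and they name E2.75 morula as the source; those of the Oct4 MWT late ICMs name E3.75 early ICM. The titles were followed for stage, so the comparisons of these 2 groups with Ctrl rest on titles that other labels contradict. The labels give the strain as B6C3F1, and nothing says which embryos shared a litter, so the p-values measure the spread between embryos, whatever its source. The numbers of the Ctrl and KO late ICMs begin with 1 or 2, and what these sets are is not stated. Oct4 Ctrl late ICMs held 5 embryos of set 1 and 3 of set 2, and every other such group held 4 of each.

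Totals ran from 525755 to 1344035 UMIs per embryo, and the 40 genes together took 0.389% to 0.719% of them. The share of mitochondrial transcripts moved with Oct4 loss, in overlapping ranges: its median was 4.89% in Oct4 Ctrl and 5.90% in Oct4-KO early ICMs, and 6.19% and 4.40% in late ICMs. Pou5f1 held 3, 7 and 1 UMIs in all Oct4-KO morulae, early and late ICMs, against 163, 550 and 236 in Ctrl. Sox2 had medians of 1.81, 24.3 and 13.7 CPM (an embryo's UMIs of a gene, scaled to a common total as counts per 1000000) in Sox2-KO morulae, early and late ICMs against 12.4, 94.0 and 169 CPM in Ctrl, so it was reduced but still detected. The summed epiblast markers (13 genes) had medians of 3498 CPM in Oct4 Ctrl early ICMs and 1991 in Oct4-KO, and 4278 and 1172 CPM in late ICMs. The trophectoderm markers (13 genes) went the other way, from 617 to 1237 CPM in early and from 700.1 to 2965 CPM in late ICMs, and the primitive endoderm markers (12 genes) from 849 to 1341 and from 713 to 1650 CPM. In Oct4-KO late ICMs 12 epiblast markers were lower and 9 trophectoderm markers higher, while of the 10 tested primitive endoderm markers 5 were lower and 3 higher. In Oct4-KO early ICMs 10 epiblast markers were lower, 3 trophectoderm markers higher and 1 lower, and 3 primitive endoderm markers lower and 2 higher. An ICM is a mixture of cells read as 1 library, so fewer cells of a type and less RNA per cell cannot be told apart, and the part of these markers, and of the mitochondrial share, in the results below was not tested.

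In Oct4-KO early ICMs 5 of the 39 tested genes were called changed, at an adjusted p under 0.05 (edgeR's quasi-likelihood test, Benjamini-Hochberg over 14053 genes) and a fold of at least 2. Ldha, Pck2, Idh1 and Sucla2 fell and Hk1 rose. In Oct4-KO late ICMs the same 5 genes were called in the same direction and were joined by Pfkp, which fell, and Tpi1, which rose but did not pass without 1 embryo. The 4 genes that fell in early ICMs stand beside 6.11% of all tested genes called lower, and the 1 that rose beside 4.77% called higher; for the 5 lower and 2 higher in late ICMs the shares over all genes were 8.85% and 9.25%. Over all genes that is 1244 lower and 1300 higher in late ICMs, or 1430 and 1108 when libraries are scaled by total UMIs alone. The median log2 fold change of the 39 genes was -0.12 in early ICMs (0.01 over all genes) and 0.08 in late ICMs (-0.01 over all genes). The median of the set thus lay close to that of all genes, while Pck2 and Ldha lost nearly all of their transcripts. The study itself drew attention to Ldha, Pck2 and Idh1 from these embryos, so their place among the called genes is not independent evidence.

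**Figure D1:**
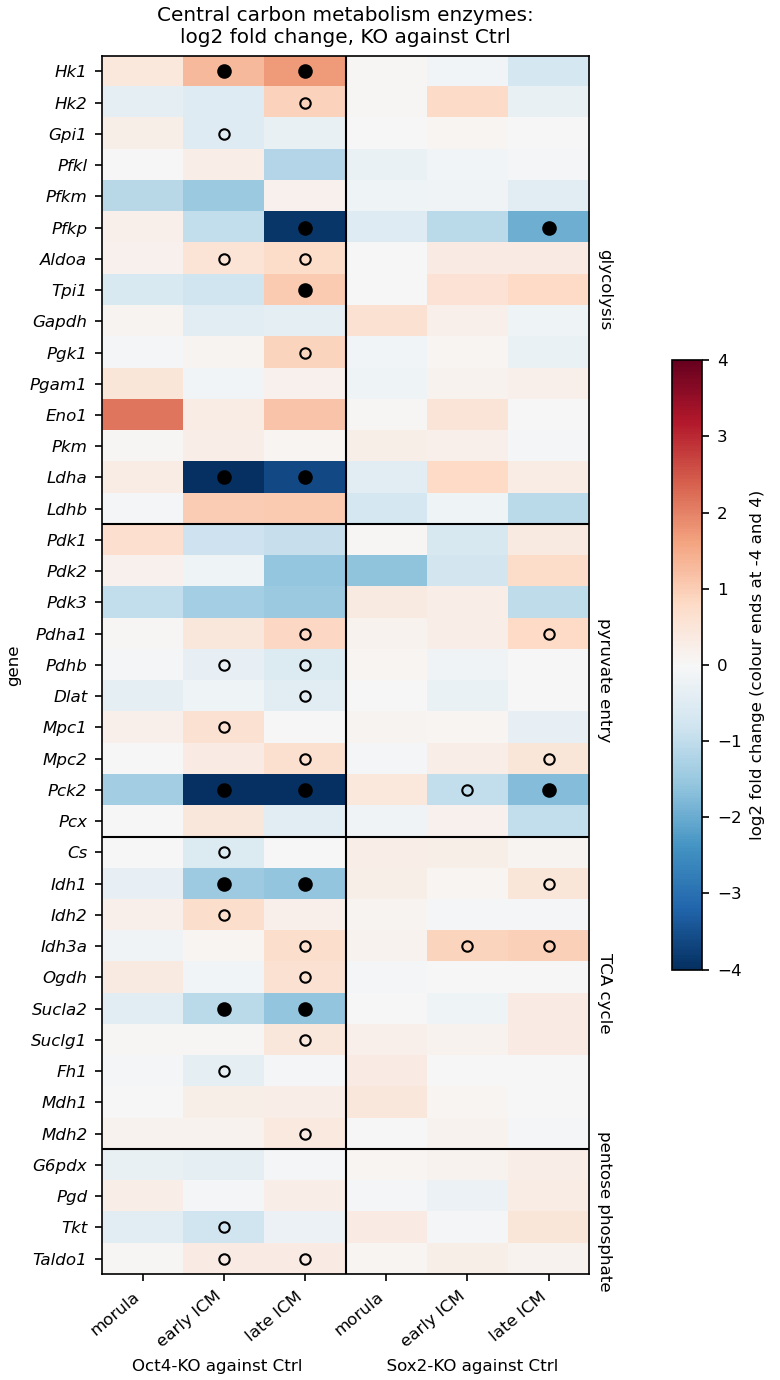
Log2 fold change of the 39 tested enzymes (rows, by pathway) in KO against Ctrl embryos of each line and stage (columns, 8 embryos a group); blue is lower and red higher in KO, with colours ending at -4 and 4, a filled circle marks a gene called at a fold of at least 2, and an open circle one that passed the adjusted p at a smaller fold. Filled circles stand only in ICM columns, 5 in early and 7 in late Oct4-KO ICMs and 2 in late Sox2-KO ICMs.

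The 7 called genes lie on different chromosomes in mm10, apart from Pck2 and Sucla2: Hk1 at chr10:62268855-62379908, Pfkp at chr13:6579768-6648777, Tpi1 at chr6:124810586-124814296 and Idh1 at chr1:65158616-65186500 on the minus strand, and Ldha at chr7:46841475-46855627, Pck2 at chr14:55540266-55551242 and Sucla2 at chr14:73525319-73596142 on the plus strand. These are whole gene spans; the counts come from the 3′ ends of their transcripts.

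Counting every gene that passed the adjusted p, whatever its fold, 9 enzymes fell and 5 rose in Oct4-KO early ICMs, beside 10.9% and 10.1% of all genes. In Oct4-KO late ICMs 7 fell and 12 rose, beside 15.7% and 16.0%. Most of these differences were smaller than 2-fold, and by pathway the early ICM changes took 2 glycolytic genes down and 2 up, 2 pyruvate genes down and 1 up, 4 TCA genes down and 1 up, and 1 pentose phosphate gene each way. Scaling by total UMIs alone moved the any-fold counts over all genes from 1537 lower and 1413 higher to 1821 and 1119 in early ICMs. In late ICMs it moved them from 2200 and 2250 to 2707 and 1873.

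Hexokinase, which traps glucose in the cell as glucose 6-phosphate, is encoded here by Hk1 and Hk2. Hk1 ran from 2.13 to 8.92 CPM (median 7.74) in Oct4 Ctrl early ICMs and from 7.02 to 28.1 CPM (median 14.7) in Oct4-KO. In late ICMs it ran from 1.38 to 5.45 CPM (median 3.91) in Ctrl and from 1.19 to 19.6 CPM (median 9.70) in KO. The groups overlapped at both stages, but 5 of 8 KO embryos in early and 6 of 8 in late ICMs lay above the highest Ctrl embryo. The fitted differences were 1.29 ± 0.37 (log2 fold change ± SE, adjusted p = 0.00653) and 1.70 ± 0.45 (adjusted p = 0.00185, edgeR). The early call did not hold (0.96, adjusted p = 0.0735, edgeR) without the libraries whose summed markers stood apart from their group, among them Oct4-KO early ICM embryo 10 and Ctrl early ICM embryo 9, an alternative chosen after the data were seen. Hk2 differed by -0.53 ± 0.28 in early ICMs, which did not pass (adjusted p = 0.184, edgeR), and rose by 0.92 ± 0.29 in late ICMs (adjusted p = 0.009, edgeR), below the 2-fold minimum.

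Phosphofructokinase commits sugar to glycolysis, and its platelet-type gene Pfkp separated the late ICMs completely. Oct4 Ctrl late ICMs held 28.7 to 53.6 CPM of Pfkp (median 40.1) and Oct4-KO late ICMs 0 to 9.36 CPM (median 1.23), with no UMI in 3 of the 8. Summed over embryos, KO held 14 UMIs against 211 in Ctrl, which is 5.91% of the Ctrl level (exact 95% interval 3.18 to 10.1, for counting error only). No KO embryo reached the lowest Ctrl embryo, and the fall was -3.88 ± 0.47 (adjusted p = 8.02e-11, edgeR). In early ICMs, where Ctrl itself held a median of only 6.99 CPM, the difference of -1.0 ± 0.50 did not pass (adjusted p = 0.15, edgeR), and the 2 differences were themselves unequal (late minus early -2.88 ± 0.74, adjusted p = 0.0109, edgeR). The liver-type and muscle-type genes Pfkl and Pfkm did not pass in either ICM stage; their group medians stayed between 1.18 and 4.40 CPM in Oct4 Ctrl and KO ICMs. Without KO late ICM embryo 1-2, however, Pfkl was called lower in late ICMs (-1.66, adjusted p = 0.032, edgeR).

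Tpi1, which interconverts the triose phosphates, was called only in late ICMs, where Ctrl embryos held 15.1 to 101 CPM (median 45.5) and KO embryos 30.4 to 218 CPM (median 84.6). The groups overlapped, with 3 of 8 KO embryos above the highest Ctrl embryo and 7 of 8 above the Ctrl median. The rise was 1.05 ± 0.32 (adjusted p = 0.00716, edgeR) and fell just short of the fold minimum when libraries were scaled by total UMIs alone (0.95, adjusted p = 0.0168). It rested on 1 embryo: without Oct4-KO late ICM embryo 1-2, at 218 CPM, the difference was 0.73 (adjusted p = 0.0716, edgeR) and did not pass. In early ICMs KO embryos held a median of 22.9 CPM against 39.4 in Ctrl (-0.80 ± 0.35, adjusted p = 0.094, edgeR), and without KO embryo 11 Tpi1 was called lower there (-1.15, adjusted p = 0.0158). The difference between the stages passed (1.85 ± 0.47, adjusted p = 0.0106, edgeR), also without embryo 1-2 (1.52, adjusted p = 0.0402), but not without the libraries with outlying markers (1.54, adjusted p = 0.0559).

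Of the 7 genes of the shared trunk of glycolysis around these steps, 3 passed at a fold below 2. Aldoa, the main aldolase, rose by 0.54 ± 0.15 in early ICMs (adjusted p = 0.00424, edgeR) and by 0.73 ± 0.15 in late ICMs (adjusted p = 4.1e-05, edgeR), and all 8 KO embryos lay above the Ctrl median at both stages. Pgk1, phosphoglycerate kinase, rose by 0.88 ± 0.23 in late ICMs (adjusted p = 0.00154, edgeR), with a median of 105 CPM in KO and 45.0 in Ctrl. Gpi1, glucose phosphate isomerase, fell by 0.52 ± 0.18 on the log2 scale in early ICMs (adjusted p = 0.0265, edgeR). Gapdh, Pgam1, Eno1 and Pkm did not pass at either stage, with log2 fold changes between -0.43 and 1.15; the largest of these, Eno1 in late ICMs, rested on 24 UMIs in KO and 10 in Ctrl. Gapdh, Pgk1, Pgam1 and Aldoa have processed pseudogenes that could take some of their reads, and Eno1 has a near-identical copy, so their counts are uncertain.

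Ldha, the lactate dehydrogenase subunit that favours lactate formation, was the glycolytic gene with the largest fall in early ICMs. It ran from 2.43 to 28.5 CPM (median 10.9) in Oct4 Ctrl early ICMs and from 0 to 1.22 CPM in KO, where 5 of 8 embryos held no UMI. The KO embryos held 3 UMIs in all against 88, or 3.34% of the Ctrl level (exact 95% interval 0.676 to 10.1). The groups did not overlap, and the fall was -4.45 ± 1.0 (adjusted p = 0.000426, edgeR). In late ICMs Ctrl embryos spread from 0 to 28.1 CPM (median 7.89) and KO embryos from 0 to 2.57 CPM, 5 UMIs against 68, or 6.55% of Ctrl (2.06 to 16.0). Here the groups overlapped because 2 Ctrl embryos also held none, yet each of the 8 KO embryos was under the median of Ctrl and the fall passed (-3.61 ± 0.97, adjusted p = 0.00211, edgeR). Ldhb, the other subunit, was scarce in all ICMs, with 14 UMIs in Ctrl and 29 in KO early ICMs and 8 and 18 in late ICMs, and did not pass (adjusted p = 0.242 and 0.284, edgeR). Ldha has 2 named pseudogenes, so some of its reads may have been lost to them.

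**Figure D2:**
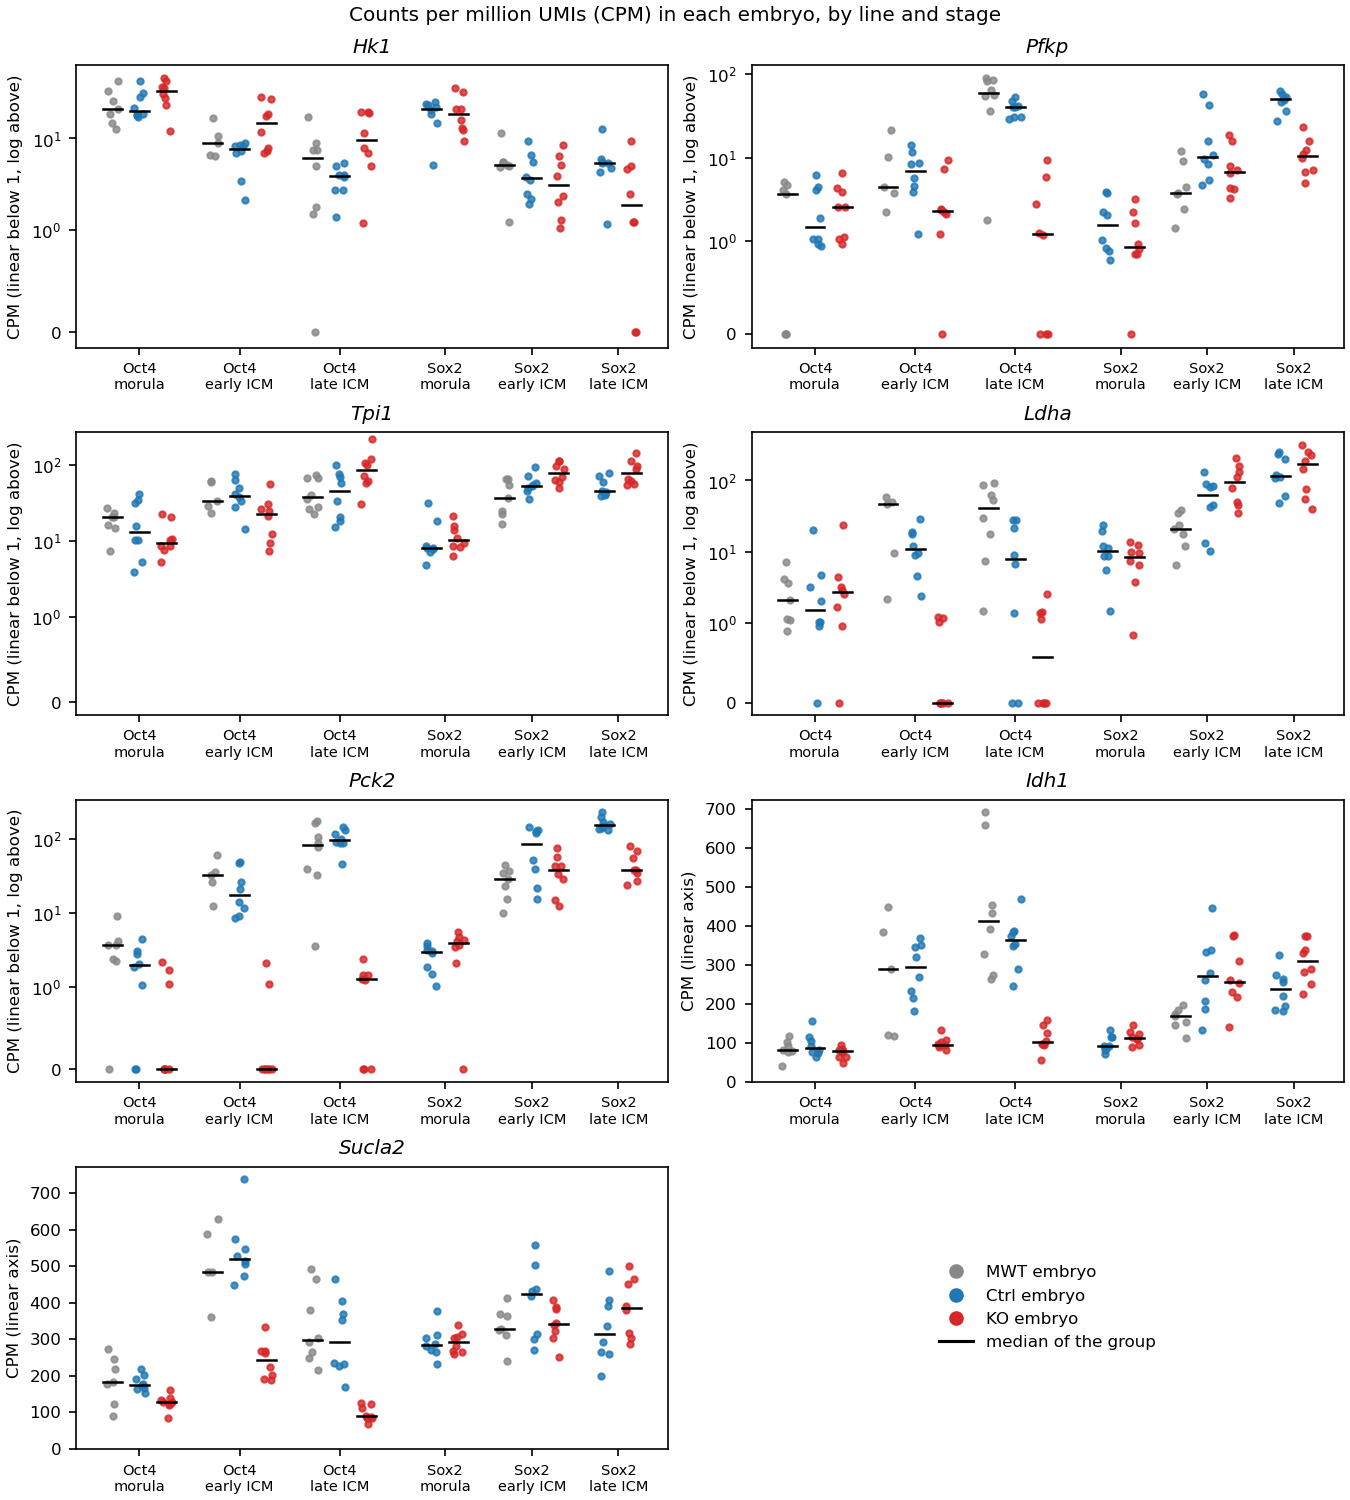
CPM in each embryo (points) for the 7 enzymes called in at least 1 KO comparison, by line, stage and genotype, with the group median as a bar; the axis is logarithmic above 1 CPM and linear below, except for Idh1 and Sucla2, which are linear from 0. Oct4-KO ICMs sit at or near 0 for Pck2 and Ldha, and Oct4-KO late ICMs hold 0 to 9.36 CPM of Pfkp, below all Ctrl late ICMs.

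Read as shares within the members of an isozyme family, the same values show which of these members supplied the transcripts. UMIs were counted from the 3′ end, once per molecule, so the shares need no correction for length. Ldha made up 86.3% of lactate dehydrogenase UMIs (88 of 102, exact 95% interval 78.0 to 92.3) in Oct4 Ctrl early ICMs and 9.38% (3 of 32, 1.98 to 25.0) in KO. Pfkp made up 80.2% of phosphofructokinase UMIs (74.9 to 84.9) in Oct4 Ctrl late ICMs and 30.4% (17.7 to 45.8) in KO. Hk1 made up 5.65% of Hk1 and Hk2 UMIs (4.15 to 7.49) in Oct4 Ctrl early ICMs and 17.7% (14.8 to 21) in KO, where single embryos ran from 6.31% to 48.2% with a median of 14.1%. In late ICMs its shares were closer, 5.04% (3.06 to 7.76) in Ctrl and 8.45% (6.6 to 10.6) in KO, with overlapping intervals. In Oct4 Ctrl and KO morulae Ldha made up 16.7% and 20.5%, with most of it from 1 embryo in each group (median over embryos 6.67% and 13.5%), and in Sox2 Ctrl and KO morulae 44.4% (37.7 to 51.3) and 49.6% (41.1 to 58.2). These shares are a description, with no test.

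**Figure D3:**
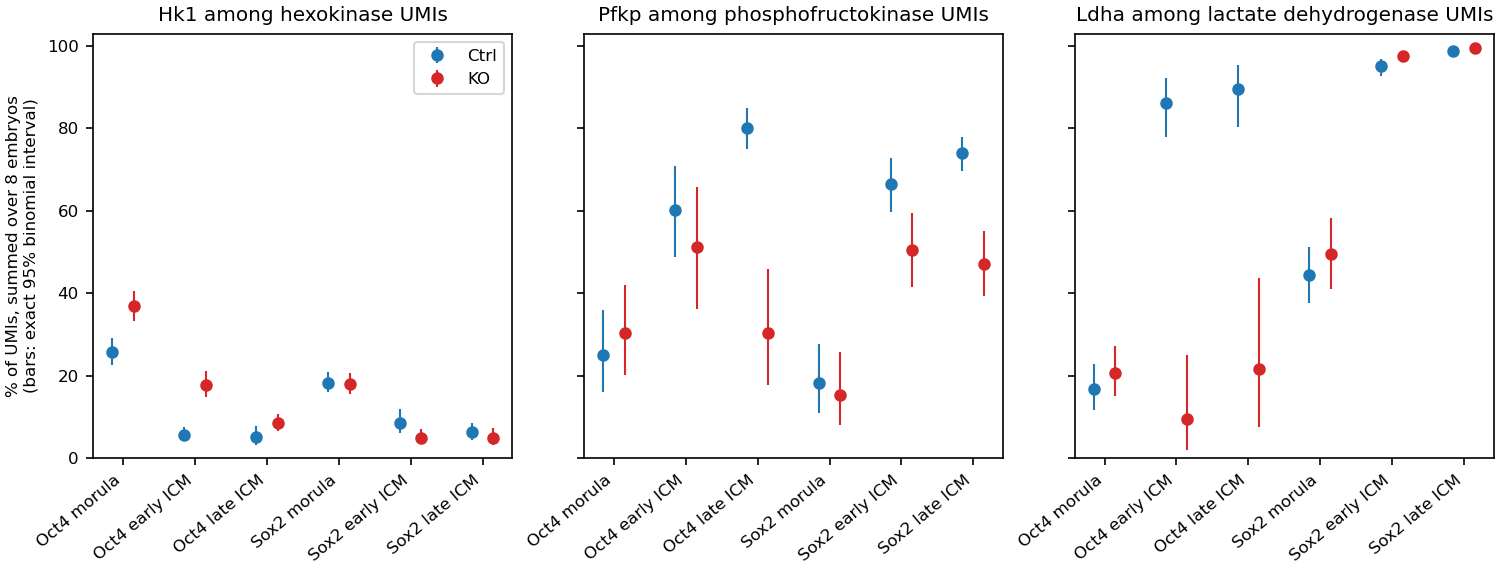
Share of a family's UMIs that came from Hk1 (of Hk1 and Hk2), Pfkp (of Pfkl, Pfkm and Pfkp) and Ldha (of Ldha and Ldhb), in percent, summed over the 8 embryos of each Ctrl (blue) and KO (red) group, with exact 95% binomial intervals that cover counting error only. Ldha falls from 86.3% to 9.38% and Pfkp from 80.2% to 30.4% in the Oct4-KO groups named, while Ldha stays at 95.1% or more in all 4 groups of Sox2 ICMs.

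At the entry of pyruvate, Pck2 was the gene with the largest fall of all 39. It encodes the mitochondrial phosphoenolpyruvate carboxykinase, which turns oxaloacetate into phosphoenolpyruvate and so runs against the glycolytic direction. Oct4 Ctrl embryos held 8.51 to 48.0 CPM (median 17.4) in early ICMs and 45.4 to 144 CPM (median 94.8) in late ICMs. The late Ctrl embryos of set 1 held 45.4 to 98.5 CPM and those of set 2 held 116 to 144 CPM. Oct4-KO embryos held 0 to 2.13 CPM in early ICMs, with no UMI in 6 of 8, and 0 to 2.38 CPM (median 1.27) in late ICMs. The groups did not overlap at either stage: KO held 1.84% of the Ctrl level in early ICMs (3 against 160 UMIs, exact 95% interval 0.375 to 5.46) and 1.01% in late ICMs (6 against 529 UMIs, 0.369 to 2.21). The falls were -5.29 ± 0.65 (adjusted p = 1.95e-10, edgeR) and -6.36 ± 0.51 (adjusted p = 5.99e-19, edgeR). Pcx, pyruvate carboxylase, which makes the oxaloacetate that Pck2 consumes, did not pass at either stage (0.45 ± 0.65 and -0.42 ± 0.62) and rested on 11 to 18 UMIs a group.

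The pyruvate dehydrogenase complex changed by less than 2-fold and not in 1 direction. Pdhb, its E1 beta subunit, fell by 0.34 ± 0.09 on the log2 scale in early ICMs (adjusted p = 0.00386, edgeR), where KO embryos held 278 to 347 CPM and Ctrl embryos 354 to 491 without overlap. In late ICMs it fell by 0.55 ± 0.09 (adjusted p = 1.79e-06, edgeR). Pdha1, its E1 alpha partner, rose in late ICMs by 0.82 ± 0.18 (adjusted p = 0.000112, edgeR), and Dlat, the E2 subunit, fell by 0.45 ± 0.16 (adjusted p = 0.0204, edgeR). The subunits of 1 complex therefore moved in opposite directions in the same embryos. The mitochondrial pyruvate carrier had 1 gene pass at each stage: Mpc1 rose in early ICMs (0.61 ± 0.14, adjusted p = 0.000468, edgeR) and Mpc2 in late ICMs (0.65 ± 0.13, adjusted p = 5.01e-05, edgeR). The kinases Pdk1, Pdk2 and Pdk3 ran from -0.18 to -1.55 in the Oct4-KO ICMs, at group means of 0.81 to 6.28 CPM, and none passed, though Pdk3 was called lower in late ICMs without KO embryo 1-2 (-3.56, adjusted p = 0.000955, edgeR).

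In the TCA group, Idh1 and Sucla2 fell at both ICM stages with no overlap between KO and Ctrl embryos. Idh1, the cytosolic isocitrate dehydrogenase that makes NADPH outside the mitochondrion, ran from 181 to 368 CPM (median 294) in Oct4 Ctrl early ICMs and from 81.1 to 132 CPM (median 95.3) in KO. In late ICMs the ranges were 245 to 468 CPM in Ctrl and 56.5 to 159 in KO. The KO level was about the same share of Ctrl at each stage, 34.9% (32.0 to 38.1) and 31.2% (28.5 to 34.1), with falls of -1.45 ± 0.18 (adjusted p = 4.02e-10, edgeR) and -1.59 ± 0.18 (adjusted p = 6.12e-12, edgeR). Sucla2, the ATP-forming beta subunit of succinyl-CoA ligase, held 450 to 740 CPM (median 521) in Ctrl early ICMs and 189 to 333 CPM (median 243) in KO. In late ICMs it held 170 to 465 CPM in Ctrl and 68.2 to 125 in KO. Its falls were -1.09 ± 0.15 (adjusted p = 1.09e-08, edgeR) and -1.57 ± 0.16 (adjusted p = 5.7e-14, edgeR), to 45.0% (42.4 to 47.6) and 31.8% (28.9 to 35) of the Ctrl level. Its partner subunit Suclg1 did not follow: the difference was 0.05 ± 0.12 in early ICMs, and it rose by 0.44 ± 0.12 in late ICMs (adjusted p = 0.00234, edgeR). Among the called genes, Pck2 overlaps Gm10876 on the other strand, Pfkp Pitrm1, Hk1 Hk1os and Tpi1 Spsb2; whether the counting used the strand is not stated, so reads of such pairs may not be separated.

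The other 8 TCA genes gave small and mixed differences. In early ICMs Cs, citrate synthase, fell by 0.54 ± 0.13 on the log2 scale (adjusted p = 0.000612, edgeR) and Fh1, fumarase, by 0.38 ± 0.14 (adjusted p = 0.0455, edgeR), while Idh2, the mitochondrial NADP isocitrate dehydrogenase, rose by 0.69 ± 0.16 (adjusted p = 0.000484, edgeR). In late ICMs Idh3a, of the NAD isocitrate dehydrogenase (0.70 ± 0.18), Ogdh, of the oxoglutarate dehydrogenase (0.60 ± 0.18), and Mdh2, mitochondrial malate dehydrogenase (0.38 ± 0.10), rose. Mdh1, its cytosolic counterpart, did not pass at either stage (0.23 and 0.26). Of the isocitrate dehydrogenases, the cytosolic gene thus fell while the mitochondrial genes that passed were higher.

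Of the 4 pentose phosphate genes, none changed by 2-fold. Tkt, transketolase, fell in early ICMs from a median of 20.6 CPM to 11.6 (-0.81 ± 0.29, adjusted p = 0.0327, edgeR), and Taldo1, transaldolase, rose by 0.33 at both stages (adjusted p = 0.0468 and 0.031, edgeR). G6pdx and Pgd, which carry out the NADPH-forming steps, lay between -0.39 and 0.25 and did not pass.

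The 4 genes called lower at both Oct4-KO ICM stages were searched for the octamer (ATGCAAAT), the Sox core (ATTGTT) and the hypoxia core (ACGTG) in the 250 bases before their 5′-most RefSeq start (GRCm38.p6, 5′ to 3′ in the direction of the gene). These windows are shown because the removed factors bind the first 2 motifs and Ldha is a known target of the hypoxia response. They lie at chr14:55540016-55540265 on the plus strand for Pck2, chr7:46845554-46845803 on the plus strand for Ldha, chr1:65186480-65186729 on the minus strand for Idh1 and chr14:73552536-73552785 on the plus strand for Sucla2. Capitals mark a match to 1 of the 3 motifs on either strand:
Pck2: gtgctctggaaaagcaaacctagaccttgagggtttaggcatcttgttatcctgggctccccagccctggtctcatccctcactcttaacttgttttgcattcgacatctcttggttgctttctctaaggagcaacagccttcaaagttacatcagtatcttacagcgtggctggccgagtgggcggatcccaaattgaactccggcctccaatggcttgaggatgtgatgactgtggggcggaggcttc
Ldha: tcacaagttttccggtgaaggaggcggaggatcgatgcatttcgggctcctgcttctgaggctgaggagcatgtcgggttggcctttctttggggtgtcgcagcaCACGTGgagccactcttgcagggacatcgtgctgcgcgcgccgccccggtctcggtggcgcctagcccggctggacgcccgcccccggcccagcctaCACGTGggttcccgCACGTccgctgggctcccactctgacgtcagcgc
Idh1: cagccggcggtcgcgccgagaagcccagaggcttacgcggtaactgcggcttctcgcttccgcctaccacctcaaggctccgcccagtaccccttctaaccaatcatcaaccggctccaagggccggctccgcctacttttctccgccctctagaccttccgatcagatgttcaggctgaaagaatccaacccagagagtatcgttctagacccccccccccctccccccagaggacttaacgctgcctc
Sucla2: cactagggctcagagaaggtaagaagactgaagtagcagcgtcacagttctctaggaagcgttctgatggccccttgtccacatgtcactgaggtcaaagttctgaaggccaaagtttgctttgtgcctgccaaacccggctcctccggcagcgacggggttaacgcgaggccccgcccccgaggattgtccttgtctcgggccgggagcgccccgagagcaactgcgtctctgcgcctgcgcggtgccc
Among these 4 sequences the only matches are 5 of the hypoxia core in Ldha, counted on both strands with overlaps, which 16.6% of 32851 promoters hold at least once. The octamer stands in 1.60% and the Sox core in 9.42% of promoters of this length. Ldha and Idh1 each have a second RefSeq start, and only that of Idh1 held a match, 1 Sox core. The windows of Ldha and Sucla2 lie inside the gene spans given above, which start further upstream, at 46841475 and 73525319. The bases before those starts were not searched. A match is a run of letters, not a bound site, and no match says only that these letters are not in this window.

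Sox2-KO ICMs changed fewer of these enzymes. In early ICMs no gene was called at 2-fold (DESeq2 also called 0, and 7 genes had an unadjusted p under 0.05), beside 1.69% of all genes called lower and 1.57% higher. At any fold 1 fell, Pck2, and 1 rose, Idh3a, beside 3.82% and 3.22% of all genes. Pck2, at -1.0, lay just short of the fold minimum. It was called when scaled by total UMIs, with thinned counts and without the libraries with outlying markers. In late ICMs Pfkp and Pck2 were called lower and none higher, beside 3.61% and 3.34% of all genes. At any fold 2 fell and 4 rose (Pdha1, Mpc2, Idh1 and Idh3a), beside 6.81% and 6.96%. The median log2 fold change was 0.07 in early (-0.01 over all genes) and 0.00 in late ICMs (0.00 over all genes). Scaled by total UMIs alone, the calls over all genes in late ICMs shifted from 508 lower and 469 higher to 628 lower and 379 higher. Pfkp and Pck2 stayed called. At any fold, this scaling moved the counts over all genes from 957 lower and 978 higher to 1394 and 728 in late ICMs. In early ICMs it moved them from 537 and 452 to 755 and 359.

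Pck2 ran from 15.6 to 144 CPM (median 85.8) in Sox2 Ctrl early ICMs and from 12.5 to 73.8 CPM (median 38.1) in KO, overlapping groups that differed by -1.0 ± 0.29 (adjusted p = 0.0207, edgeR). In late ICMs Ctrl held 131 to 226 CPM (median 151) and KO 23.5 to 79.0 CPM (median 37.7). By set, Ctrl held 131 to 146 CPM in set 1 and 156 to 226 in set 2, and KO 23.5 to 79.0 and 27.0 to 67.7. The late groups did not overlap and KO held 28.9% of the Ctrl level (25.3 to 32.8), a fall of -1.72 ± 0.29 (adjusted p = 3.26e-06, edgeR). Pfkp gave the same picture in late ICMs, with 27.5 to 62.4 CPM (median 50.0) in Ctrl and 4.95 to 23.2 CPM (median 10.5) in KO, again without overlap. It fell by 1.94 ± 0.36 on the log2 scale (adjusted p = 3.21e-05, edgeR), to 24.5% of Ctrl (18.8 to 31.5), and its share of phosphofructokinase UMIs went from 74.0% (69.7 to 78.0) to 47.2% (39.3 to 55.2). In early ICMs Pfkp did not pass (-1.08 ± 0.39, adjusted p = 0.0709, edgeR). The summed epiblast markers had medians of 3056 and 2354 CPM in Sox2 Ctrl and KO early ICMs and 4266 and 2318 CPM in late ICMs. The trophectoderm markers had medians of 482.8 and 841.0 CPM in early ICMs, where 4 of 13 were higher and 1 lower, and of 588.7 and 985.6 CPM in late ICMs, where 3 were higher. Their sums in Sox2-KO late ICMs ran from 1107.2 to 1878.3 CPM in set 1 and from 675.0 to 863.9 CPM in set 2. The part of these markers in the falls was not tested.

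Ldha, Idh1 and Sucla2, which fell in Oct4-KO ICMs, were not among the genes that passed as lower in Sox2-KO ICMs. Ldha held 10.4 to 131 CPM (median 63.4) in Sox2 Ctrl early ICMs and 35.4 to 209 CPM (median 95.9) in KO, overlapping groups in which KO held 170% of the Ctrl UMI level (759 against 450 UMIs, exact 95% interval 151 to 191, for counting error only); the fitted difference, 0.80 ± 0.39, did not pass (adjusted p = 0.228, edgeR) and is part of the difference between the Oct4-KO and Sox2-KO effects. In late ICMs it held 48.8 to 251 CPM (median 114) in Ctrl and 39.6 to 311 CPM (median 168) in KO, with broad overlap (0.29 ± 0.37, adjusted p = 0.683, edgeR). Mean Ldha there was 135 CPM in Ctrl and 219 in KO in set 1, but 149 and 106 CPM in set 2. Idh1 rose slightly in late ICMs (0.48 ± 0.17, adjusted p = 0.0489, edgeR), from a median of 238 CPM to 310. Sucla2 differed by -0.17 ± 0.15 in early and 0.33 ± 0.15 in late ICMs, and neither passed. Idh3a rose in Sox2-KO at both stages, by 0.89 ± 0.17 (adjusted p = 0.000191, edgeR) and 0.95 ± 0.18 (adjusted p = 2.61e-05, edgeR). In late ICMs all 8 Sox2-KO embryos, at 292 to 389 CPM, lay above all Ctrl embryos, at 104 to 253 CPM. Pdha1 rose by 0.81 ± 0.17 in late ICMs (adjusted p = 0.000323, edgeR) and Mpc2 by 0.48 ± 0.13 (adjusted p = 0.00688, edgeR).

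The difference between the Oct4-KO and Sox2-KO effects was tested in the same fit. In early ICMs 4 genes passed (5.52% of all genes were called): Oct4-KO minus Sox2-KO log2 fold change was -5.25 ± 1.07 for Ldha (adjusted p = 0.000372, edgeR), -4.29 ± 0.78 for Pck2 (adjusted p = 4.39e-05), -1.52 ± 0.25 for Idh1 (adjusted p = 4.93e-06) and -1.28 ± 0.40 for Hk2 (adjusted p = 0.0324), the last of which did not pass without the libraries with outlying markers (-0.95, adjusted p = 0.152). In late ICMs 8 passed (6.30% of all genes): Ldha, Pck2, Pfkp, Idh1 and Sucla2 were lower in Oct4-KO, with differences of -4.64 to -1.90, and Hk1, Hk2 and Pgk1 higher, with differences of 1.16 to 2.40. In late ICMs Pck2 and Pfkp thus fell in both lines, with the larger fall in Oct4-KO; the difference for Pfkp was lost when counts were thinned to the lowest total (-1.83, adjusted p = 0.0944) and that for Hk1 likewise (1.95, adjusted p = 0.115), and that for Hk2 without Oct4-KO late ICM embryo 1-2 (1.19, adjusted p = 0.0583). The lines differ in their Ctrl levels, which were not tested against each other: median Ldha was 10.9 CPM in Oct4 and 63.4 CPM in Sox2 Ctrl early ICMs, and 7.89 and 114 CPM in late ICMs.

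In morulae none of the 39 enzymes was called in either line, by edgeR, DESeq2 or limma on the rlog values, and 5 (Oct4-KO) and 4 (Sox2-KO) of 39 had an unadjusted p under 0.05. Over all genes 0.804% were called in Oct4-KO morulae and 0.00712% in Sox2-KO morulae. Sucla2 and Idh1 were already well measured at this stage. Sucla2 held 152 to 219 CPM in Oct4 Ctrl and 85.4 to 161 in KO morulae (-0.45 ± 0.15, adjusted p = 0.135, edgeR), and Idh1 62.8 to 156 CPM and 49.2 to 94.1. Ldha, Pck2 and Pfkp had medians of 1.55, 1.96 and 1.48 CPM in Oct4 Ctrl morulae, so a fall there was hardly detectable at this depth. The Oct4-KO effect in early ICMs was lower than in morulae for 2 genes, Ldha (-4.76 ± 1.33, adjusted p = 0.0202, edgeR) and Idh1 (-1.13 ± 0.26, adjusted p = 0.00277, edgeR), beside 3.29% of all genes. The difference for Ldha did not pass without Oct4-KO morula 5, which held most of the Ldha of its group (-3.71, adjusted p = 0.149). From early to late ICM the Oct4-KO effect shifted for Pfkp, Tpi1 and Hk2 (1.45 ± 0.40, adjusted p = 0.0197, edgeR), beside 3.11% of all genes; Hk2, like Tpi1, did not pass without the libraries with outlying markers (1.22, adjusted p = 0.055). For Sox2-KO no enzyme passed either stage test by edgeR, DESeq2 or limma (2 and 5 had an unadjusted p under 0.05), beside 0.882% and 0.0427% of all genes.

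The Ctrl embryos show the course these genes took from morula to ICM. In Oct4 Ctrl embryos 14 enzymes rose and 5 fell from morula to early ICM, beside 14.1% of all genes called higher and 14.9% lower. Scaled by total UMIs alone, the balance over all genes turned from 2092 lower and 1988 higher to 1831 lower and 2260 higher. In Sox2 Ctrl embryos 13 rose and 4 fell, beside 17.2% and 14.7%. The summed markers moved at the same step, with medians going from 1388 to 3498 CPM for epiblast and from 1003.5 to 617 CPM for trophectoderm in the Oct4 line, and from 1450 to 3056 and 896.1 to 482.8 CPM in the Sox2 line; their part was not tested. The genes that fell in both lines were Hk1 (-1.95 and -2.15), Ldhb (-3.29 and -2.15) and Mpc2 (-1.80 and -1.35). Those that rose in both were Pck2 (3.41 and 4.81), Gapdh (1.49 and 3.83), Gpi1, Pfkp, Tpi1, Eno1, Pkm, Ldha (1.57 and 2.40), Pdk1, Idh1 and Mdh1. The rise of Ldha in the Oct4 line was 2.61 (adjusted p = 0.00292, edgeR) without Ctrl morula 15. In that line Pfkp (1.18, adjusted p = 0.0609), Pdk1 (1.35, adjusted p = 0.0628) and Eno1 (2.23, adjusted p = 0.0505) did not pass without Ctrl early ICM embryo 7. Lactate dehydrogenase went from Ldhb to Ldha: Ldha supplied 16.7% of its UMIs in Oct4 Ctrl morulae and 86.3% in early ICMs, and 44.4% and 95.1% in the Sox2 line. Hk1 supplied 25.7% and 5.65% of Hk1 and Hk2 UMIs at these stages in the Oct4 line, and Pfkp 25.0% and 60.2% of phosphofructokinase UMIs. The Oct4 Ctrl early ICMs also serve as the controls of the Oct4-KO comparison, so the 2 sets of values are not independent: Sucla2, for example, rose by 1.47 at this step in Ctrl and fell by 1.09 on the log2 scale in KO against Ctrl. Mpc1 (-1.57) and Pfkl (-1.66) fell and Tkt, Sucla2 and Fh1 rose in the Oct4 line, and Pdha1 (-1.16) fell and Aldoa and Pfkm rose in the Sox2 line, without a test of the difference between the lines.

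**Figure D4:**
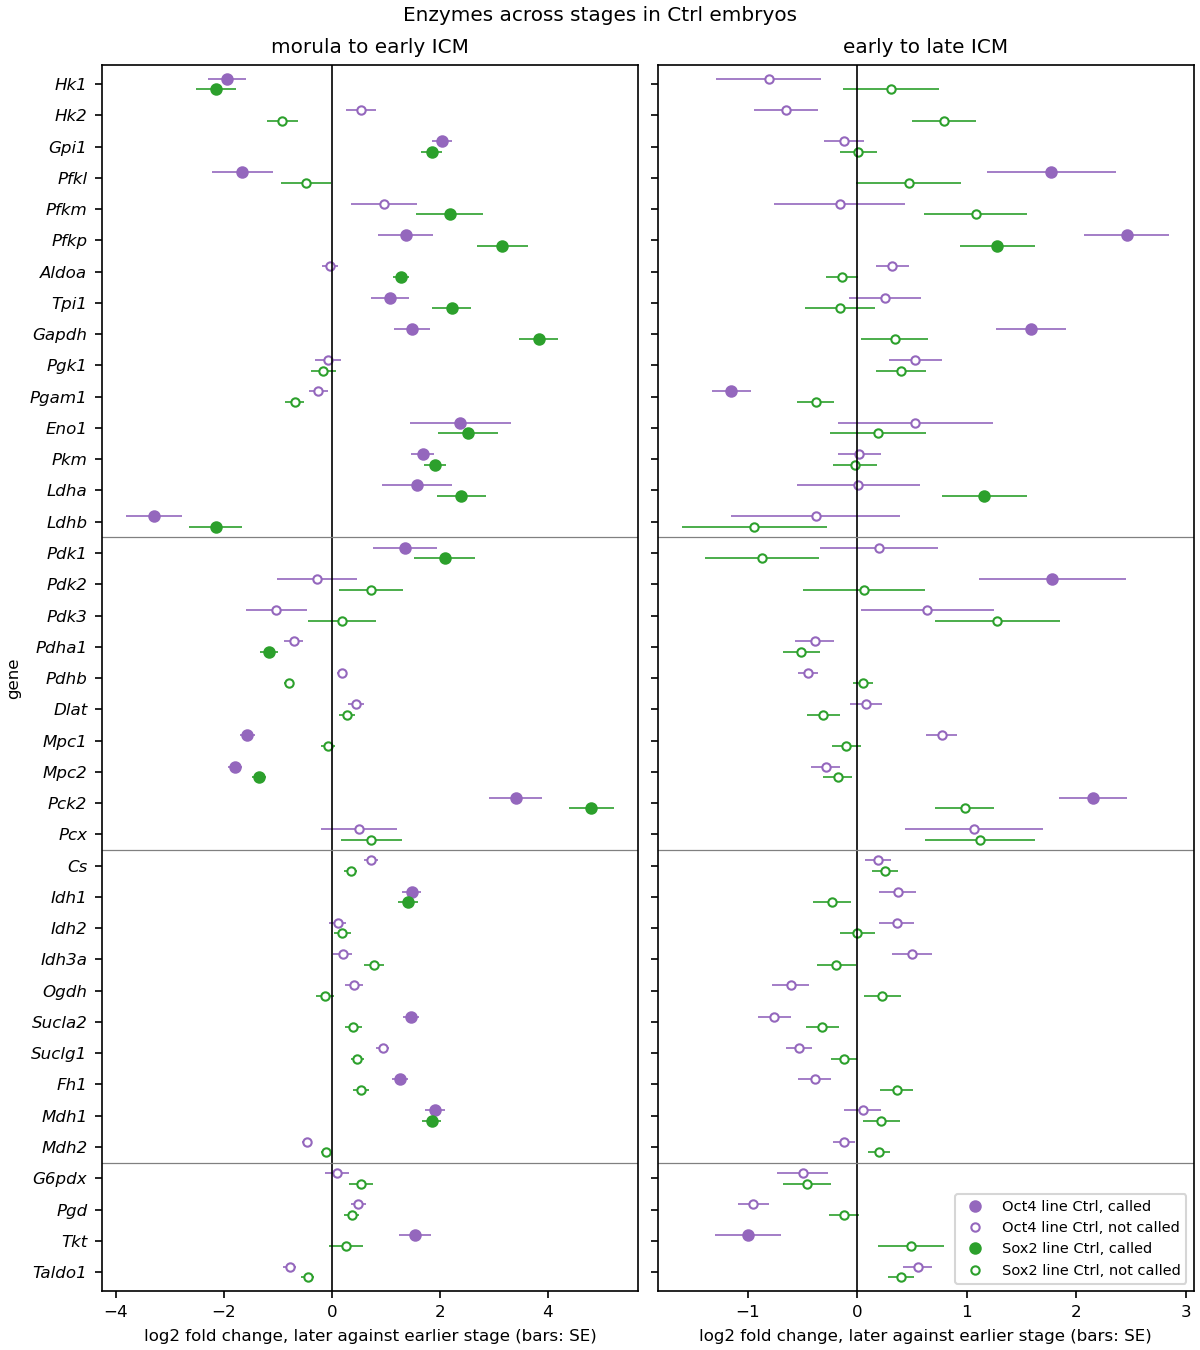
Log2 fold change of the 39 tested enzymes in Ctrl embryos from morula to early ICM (left) and from early to late ICM (right), Oct4 line in purple and Sox2 line in green, 8 embryos a group, with the SE as bars; filled points were called at a fold of at least 2. Pck2 has the largest rise to the early ICM in both lines (3.41 and 4.81), and Ldhb in the Oct4 line the largest fall (-3.29).

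From early to late ICM the changes were fewer. In Oct4 Ctrl embryos 5 rose, beside 9.52% of all genes, and 2 fell, beside 6.04%: Pfkp (2.46 ± 0.39), Pck2 (2.15 ± 0.31), Pdk2 (1.78 ± 0.67), Pfkl (1.77 ± 0.59) and Gapdh (1.59 ± 0.32) rose, and Pgam1 (-1.15 ± 0.18) and Tkt (-1.0 ± 0.30) fell. In Sox2 Ctrl embryos Pfkp (1.28 ± 0.34, adjusted p = 0.01, edgeR) and Ldha (1.16 ± 0.39, adjusted p = 0.0473, edgeR) rose, beside 1.94% of all genes, and none fell, beside 0.961%. Pfkp did not pass with thinned counts (1.10, adjusted p = 0.0625), nor Ldha with DESeq2 (adjusted p = 0.182) or without Ctrl late ICM embryo 1-5 (1.0, adjusted p = 0.121, edgeR). Median epiblast sums went from 3498 to 4278 CPM (Oct4 line) and 3056 to 4266 (Sox2 line). Trophectoderm sums went from 617 to 700.1 and 482.8 to 588.7 CPM, and primitive endoderm sums from 849 to 713 and 808.7 to 669.0 CPM. The median mitochondrial share went from 4.89% to 6.19% and from 4.96% to 3.65%. The part of these shifts was not tested.

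MWT and Ctrl embryos differ in the maternal product and also in the embryo's own maternal allele, which is intact in MWT and lost in Ctrl. These differences cannot be told apart here. In the Oct4 line no enzyme was called between MWT and Ctrl morulae, early or late ICMs by edgeR, DESeq2 or limma (3, 3 and 4 had an unadjusted p under 0.05), beside 0.0646%, 0.373% and 0.797% of 13923 genes. Ldha was still the gene furthest apart in late ICMs, with medians of 41.1 CPM in MWT and 7.89 in Ctrl (1.71 ± 0.53, adjusted p = 0.0797, edgeR). The summed primitive endoderm markers had medians of 275.3 CPM in these MWT and 713.2 in Ctrl embryos, in overlapping ranges. For epiblast markers the medians were 5714.9 and 4278.4 CPM, and for trophectoderm markers 818.9 and 700.1 CPM. The part of these markers was not tested. In Sox2 early ICMs 4 enzymes were called, beside 2.58% of all genes: Pfkp (-1.80 ± 0.47, adjusted p = 0.00975), Pck2 (-1.54 ± 0.36, adjusted p = 0.00268) and Ldha (-1.46 ± 0.48, adjusted p = 0.0492) were lower and Tkt (1.12 ± 0.30, adjusted p = 0.0113) higher in MWT than in Ctrl (edgeR). The Ldha call was lost with DESeq2 (adjusted p = 0.105). Median Pck2 was 28.5 CPM in MWT, 85.8 in Ctrl and 38.1 in Sox2-KO early ICMs; the KO and MWT comparisons share these Ctrl embryos. The summed primitive endoderm markers ran from 1113.7 to 1604.6 CPM in MWT and from 268.3 to 935.2 CPM in Ctrl without overlap, and of the 10 tested 2 were higher and none lower in MWT. The mitochondrial share ran from 3.15% to 4.341% in these MWT and from 4.42% to 5.238% in Ctrl embryos, also without overlap. Genes detected had medians of 12699 in MWT and 13321.5 in Ctrl. The part of the markers and of these library differences in the calls was not tested.

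Other genes of the same pathways were read from lists of their own; over all genes the shares called lower and higher were 6.11% and 4.77% in Oct4-KO early and 8.85% and 9.25% in late ICMs. Of 16 tested other glycolysis genes 2 were lower and 2 higher in Oct4-KO early ICMs and 2 lower and 3 higher in late ICMs. Hkdc1, a further hexokinase-like gene, rose in early ICMs (2.04 ± 0.51, adjusted p = 0.00168, edgeR) and, from a mean of 1.29 CPM to 35.1, in late ICMs (4.71 ± 0.74, adjusted p = 1.92e-07, edgeR). G6pc3, a glucose 6-phosphatase, rose by 1.04 ± 0.24 in early ICMs (adjusted p = 0.000729, edgeR), and in late ICMs Pfkfb3, which makes the activator of phosphofructokinase, rose by 1.85 ± 0.57 (adjusted p = 0.00824, edgeR). The other genes called, named here after their values were seen, were Eno2 (-3.17) in early ICMs, Pfkfb4 (-1.47 and -1.87) at both stages, and Eno3 (-1.51) and Pgam2 (2.09) in late ICMs. Of 11 tested other TCA genes 2 were lower in early ICMs (Aco1 and Sdhd) and 1 in late ICMs (Ogdhl, -1.27 ± 0.38, named after its values were seen), and none higher. Aco1, the cytosolic aconitase that stands just before Idh1, fell by 2.37 ± 0.26 on the log2 scale in early ICMs (adjusted p = 2.36e-12, edgeR). It was already called lower in Oct4-KO morulae (-1.04 ± 0.29, adjusted p = 0.0421, edgeR) and fell by less than 2-fold in late ICMs (-0.63 ± 0.25, adjusted p = 0.0448, edgeR); late minus early was 1.74 ± 0.36 (adjusted p = 0.00119). Of succinate dehydrogenase, Sdha (-0.73 ± 0.11) and Sdhb (-0.66 ± 0.13) fell by less than 2-fold in early ICMs, and Sdhd fell by 1.11 ± 0.17 in early ICMs (adjusted p = 3.96e-07, edgeR) and by 0.82 ± 0.17 in late ICMs (adjusted p = 5.03e-05, edgeR). The remaining subunit on the list, Sdhc, was not called at either stage. Of 7 tested other pyruvate genes 1 was lower in early and none in late ICMs. Me1, the cytosolic malic enzyme, rose by 0.99 ± 0.24 in late ICMs (adjusted p = 0.000719, edgeR), just short of 2-fold, and did not pass in early ICMs (0.35 ± 0.24). Me2, the mitochondrial malic enzyme, fell by 1.17 ± 0.35 in early ICMs (adjusted p = 0.0104, edgeR) and by 0.96 ± 0.36 in late ICMs (adjusted p = 0.0302, edgeR), and was also named by the study from these embryos. Of 7 tested other pentose phosphate genes 1 was lower and 1 higher in early and 1 lower and 2 higher in late ICMs, with Rpe, ribulose phosphate epimerase, down (-1.33 ± 0.18) and Tktl1, a transketolase-like gene (3.39 ± 0.60), and Rpia (1.39 ± 0.28) up in late ICMs. In Oct4-KO morulae, where 0.804% of all genes were called, 2 of the other glycolysis genes, Eno2 (-4.03 ± 0.78) and Pfkfb4 (-1.28 ± 0.35), named here after their values were seen, and 1 of the other TCA genes, Aco1, were lower, and no gene of these lists was higher. The summed trophectoderm markers had medians of 1003.5 CPM in Oct4 Ctrl and 1508.1 CPM in Oct4-KO morulae, where 1 of 13 was higher and none lower, and the epiblast markers 1388.2 and 1092.5 CPM, where 2 of 13 were lower; their part in these falls was not tested. In Sox2-KO, where 1.69% and 3.61% of all genes were called lower in early and late ICMs, 1 of these genes was called in each stage, Pfkfb2, a further regulator of phosphofructokinase, which fell (-1.24 and -1.16) and is named here after its values were seen.

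Ldha, Pdk1 and several glycolytic genes are also known targets of the hypoxia response, so a list of 15 tested genes of that response was read beside them. In Oct4-KO early ICMs 3 were lower and 2 higher, and in late ICMs 3 were lower and 3 higher (median log2 fold change -0.07 and -0.12), beside 6.11% lower and 4.77% higher over all genes in early and 8.85% and 9.25% in late ICMs. Kdm3a (-2.34 ± 0.23) and Vegfa (-2.57 ± 0.45) fell and Egln1 (1.43 ± 0.18) and Bnip3 (1.35 ± 0.21) rose in late ICMs, so the list held genes of both directions. The part of the hypoxia response in the changes of the enzymes was not tested. In Sox2-KO late ICMs 4 were lower and 1 higher, beside 3.61% and 3.34% of all genes.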

How the data were processed

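RNA of single mouse embryos was tagged with UMIs and sequenced from the 3′ end. The authors extracted UMIs with UMI-tools, trimmed reads with Cutadapt, aligned them to mm10 with TopHat2, assigned them to GENCODE vM23 genes with featureCounts and corrected molecule counts with TRUmiCount; the deposited table holds whole-number UMI counts, not normalized. The authors also deposited log2 values (the rlog of DESeq2), used here only with limma.

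Groups came from the sample labels. Genes with a UMI in at least 0.5 of the embryos of a stage were kept (14053 for the 96 Ctrl and KO embryos, 13923 with MWT embryos added). Counts were scaled by TMM and fitted with edgeR 4.0.16 (quasi-likelihood test, R 4.3.3), 1 coefficient per group, with Benjamini-Hochberg adjustment over all genes. Genes were called at an adjusted p under 0.05 with a log2 fold change of 1 or more in either direction. CPM is the UMI count divided by the embryo's total and multiplied by 1000000. Intervals of ratios and shares are exact at 95% and cover counting error only. Alternatives used DESeq2 1.42.0, limma 3.58.1, other scalings, filters, thinned counts, smaller fits, blocks and left-out embryos. The fits were tested on simulated data.

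The 40 genes and the other lists were chosen with earlier results of these data known. Genes of the other lists are named by a rule of at most 4 per list, by lowest adjusted p in the Oct4-KO ICMs. Exceptions are Sox2, Sdhc and the genes said to be named after their values were seen. Over 416 pairs of embryos within groups, the lowest chi-square per gene was 2.41 and the median 4.76, so none looked like 1 library deposited more than once. Embryo numbers shared by groups did not pair them: the correlation of deviations ran from -0.203 to 0.227.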

Additional observations from a re-analysis of the deposited data

Results flagged for a closer look

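For 17 tests the KO effect differed between lines or stages. Between Oct4-KO and Sox2-KO early ICMs the difference in log2 fold change was -1.28 for Hk2, -5.25 for Ldha, -4.29 for Pck2 and -1.52 for Idh1. Between the late ICMs it was 2.40 for Hk1, 1.23 for Hk2, -1.94 for Pfkp, 1.16 for Pgk1, -3.90 for Ldha, -4.64 for Pck2, -2.07 for Idh1 and -1.90 for Sucla2. Within the Oct4 line, the effect in early ICMs minus that in morulae was -4.76 for Ldha and -1.13 for Idh1. The effect in late minus early ICMs was 1.45 for Hk2, -2.88 for Pfkp and 1.85 for Tpi1.

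Single embryos stood apart from their group in 7 of 112 combinations of gene and group; chance alone gives about 1 in 20. Hk1 was at 11.6 CPM in Sox2 MWT early ICM embryo 9 (next 5.55) and at 12.7 CPM in Sox2 Ctrl late ICM embryo 1-5 (next 5.98). Tpi1 was at 56.7 CPM in Oct4-KO early ICM embryo 11 (next 30.3) and at 218 CPM in Oct4-KO late ICM embryo 1-2 (next 119). Ldha was at 20.2 CPM in Oct4 Ctrl morula 15 (next 4.72) and at 23.8 CPM in Oct4-KO morula 5 (next 4.43), so most of the Ldha in those morula groups came from 1 embryo each. Sucla2 was at 740.0 CPM in Oct4 Ctrl early ICM embryo 7 (next 574).

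Summed markers stood apart in 7 of 48 combinations of list and group. The epiblast sum was 2526.2 CPM in Oct4-KO early ICM embryo 10 and 5770.1 CPM in Sox2 Ctrl late ICM embryo 2-1. The trophectoderm sum was 896.1 CPM in Oct4-KO morula 12, 1415.6 CPM in Oct4 Ctrl early ICM embryo 9, 2348.3 CPM in Oct4 MWT late ICM embryo 11 and 2105.7 CPM in Sox2-KO early ICM embryo 11. The primitive endoderm sum was 734.5 CPM in Sox2-KO early ICM embryo 17.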

How the results depend on the processing

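For the genes named one by one, 864 values kept direction and call under the alternatives, 71 no longer passed, 15 newly passed and none changed direction. The 12 values fitted with the label set (1 or 2) as a block all kept direction and call. Without the fold minimum, the counts of called enzymes were 14 in early and 19 in late Oct4-KO ICMs, 2 and 6 in Sox2-KO, 16 and 4 from early to late ICM in Oct4 and Sox2 Ctrl, 28 from morula to early ICM in Sox2 Ctrl, 8 for the early difference between the KO effects and 7 in Sox2 MWT. In Sox2-KO early ICMs, 2 were called when scaled by total UMIs (Pck2 and Pfkp), 1 with thinned counts and 1 without the libraries with outlying markers (Pck2 in both). From early to late ICM in Sox2 Ctrl, 1 was called in the fit with MWT embryos added, with thinned counts, with DESeq2, with the 2 groups alone and without those libraries. With limma, 4 were called from early to late ICM in Oct4 Ctrl, 4 for the late difference between the KO effects and 1 in Sox2 MWT. Without the outlying libraries, 1 was called for the Oct4-KO effect in late minus early ICMs. Hk1 missed the fold minimum with limma (0.80 in early and 0.81 in late Oct4-KO ICMs). Scaling by total UMIs moved the median of all genes by at most 0.1, and the split of calls in Oct4 MWT late ICMs from 73 lower and 38 higher to 65 and 55. The cause of these shifts was not tested.

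With the replicate block, among embryos whose numbers 2 groups share, 1 enzyme was called in Oct4-KO morulae (Gapdh, 1.69) and 1 in Oct4 MWT morulae, and the same embryos gave 1 and 1 without it. The block gave 4 in Oct4-KO early ICMs (Pck2 -3.05, adjusted p = 0.0778; Hk1 0.28, adjusted p = 0.915), 0 and 3 in Sox2-KO early and late ICMs, 0 in Oct4 MWT early ICMs and 3 in Sox2 MWT, where the same embryos without it gave 0. These embryos are few and share only a number. For the other comparisons the groups share fewer than 2 numbers. Leaving out each embryo of the Oct4 MWT and Ctrl early ICMs in turn gave 0 to 0 calls. Leaving out, each in turn, the 7 embryos that stood apart in 1 enzyme, an alternative chosen after seeing the data, gave 5 to 6 calls in Oct4-KO early and 8 to 8 in late ICMs, 16 to 19 from morula to early ICM in Oct4 Ctrl and 1 to 2 for the Oct4-KO effect in early ICMs minus morulae. Genes under a few CPM, such as Pfkl, Pfkm, Eno1, Ldhb, Pcx and the Pdk genes, rest on few UMIs, so small differences were not detectable.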
